A study of Homo sapiens with 12 samples.

Results

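The comparison described here sets MCF10A cells that stably express the CYT2 form of the ERBB4 intracellular domain (ICD) against MCF10A cells that carry a control vector (VEC). Its members were chosen by the array titles, which name 4 arrays CYT2 and 4 arrays VEC, 8 of the 12 arrays of the series. The other 4 arrays carry the CYT1 form of the ICD and serve here for the shared estimate of the spread and for a direct test of CYT2 against CYT1. MCF10A is a human mammary epithelial line that is not transformed. All cells were kept in regular medium with 10% serum, no other treatment is labelled, and the ICD was expressed continuously, so early and late effects cannot be told apart. The titles number 2 biological replicates a group with 2 technical arrays each, and the 2 technical arrays were averaged, so n = 2 for each group throughout. The labels do not say whether the replicates are separate cultures or clones, so the p-values measure only the spread between these samples, which may be technical.

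ERBB4 belongs to the EGF receptor family. After cleavage in the membrane its ICD is released as an active kinase that can enter the nucleus and act beside transcription factors such as STAT5 and YAP. The CYT2 form lacks a short exon with a docking site for phosphoinositide 3-kinase and for certain ubiquitin ligases, which the CYT1 form carries. In mammary epithelium ERBB4 is best known for its part in lactation, and MCF10A is widely used as a model of basal-like growth and of differentiation of the squamous kind.

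Between 17514 and 18431 probes (37.0% to 38.9%) were above background on each of the 8 arrays, which means a detection p under 0.05. The ERBB4 probe was above background on 0 of the 4 CYT2 arrays, with raw signals of 110.4 to 113, and on 0 of the 4 VEC arrays, with 111.2 to 123.4. The files do not place this probe inside or outside the ICD coding region, and it is therefore no check of the transgene or of the labels. Arrays with the same biological number were no closer to each other (root mean square difference 0.300 to 0.324 on the log2 scale in CYT2 and VEC) than arrays that share neither number (0.305 to 0.322). All 9 basal mammary epithelial markers on the array were detected on all 8 arrays, as were 7 of the 12 luminal markers, KRT8, KRT18, EPCAM and MUC1 among them, while PGR, ELF5 and PROM1 were detected on none and ESR1 on 1 CYT2 array. Of the fibroblast list COL3A1, LUM, PDGFRA, PDGFRB, THY1 and FBN1 were detected on 0 of the 8 arrays. Only 6 of its 12 members were tested, and 5 of these were higher in CYT2, against 16.1% of all genes. A gene can pass the detection filter through the groups where it is high, so this count is no measure of the list. COL1A1 was detected on 4 CYT2 arrays and 1 VEC array, and POSTN on 1 and 0. The summed linear level of all 12 fibroblast markers, led by DCN, was 3094 to 3343 in CYT2 and 591.3 to 648.2 in VEC. Of 9 leukocyte markers PTPRC and CD3E were detected on 0 of the 8 arrays and CD14, CD68, CD52, HLA-DRA and ITGB2 on all 8, with a summed level of 3071 to 3278 in CYT2 and 3815 to 3910 in VEC. Of 10 endothelial markers 7 were detected on 0 of the 8 arrays, CDH5, VWF and KDR among them, and PECAM1 on 3 CYT2 and 2 VEC arrays. The part of other cell types in the results was not tested.

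A probe was called when its adjusted p was under 0.05 (limma, two-sided, Benjamini-Hochberg over all 17356 probes kept by the detection filter). In CYT2 against VEC 5272 probes, or 30.4%, were called, 2558 higher (14.7%) and 2714 lower (15.6%). With 1 probe a gene, 3487 of 10371 genes (33.6%) were called, of which 1665 (16.1%) were higher and 1822 (17.6%) lower. Rises were the larger changes: 440 genes (4.24%) rose at least 2-fold against 120 (1.16%) that fell as far, 85 rose at least 4-fold against 9, and 11 rose at least 8-fold against 0. The median absolute change of the called genes was 0.57 on the log2 scale, and 1344 of them moved by less than 0.5. All 4 CYT2 arrays lay on one side of all 4 VEC arrays in 4077 genes (39.3%), 3118 of them called. With CYT2 replicate 1, CYT2 replicate 2, VEC replicate 1 or VEC replicate 2 left out, 3094, 3185, 3020 and 3033 probes were called. The balance depended on the scaling: 48.5% of the calls were higher in CYT2, against 31.2% with the deposited log2 values as they stand and 37.1% with medians over all probes set equal, where the median probe stood at -0.076 and -0.108 in place of -0.046. All changes below are relative to such a median near 0.

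**Figure D1:**
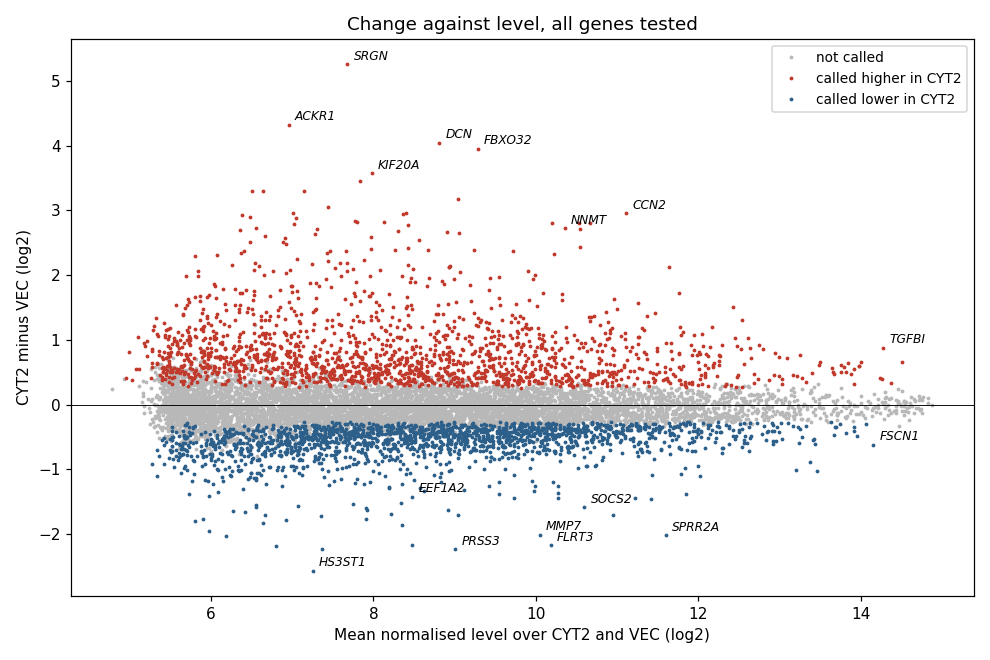
Each point is 1 gene tested, with its mean normalised level over CYT2 and VEC (log2) on the x axis and the CYT2 minus VEC difference (log2) on the y axis, coloured by call. The rises reach 5.26 (SRGN) and the falls -2.56 (HS3ST1), and called genes of both directions lie along the whole range of levels.

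Promoters of 3 groups of genes are shown first, because each group is taken up below. In each a minority of the promoters holds the motif given. Of the genes tested, 8420 had a promoter of 300 bases in the RefSeq table (GRCh38.p14), 250 bases before the start and 50 after it, searched on both strands. The letters TTTGAA or TTTAAA are forms of the cell cycle homology region bound by the MuvB complexes of mitotic genes. They were in 32.6% of the 340 promoters of genes called higher at least 2-fold. Of the 90 promoters of genes called lower at least 2-fold, 10.0% held them. The shares were 15.6% in the genes tested and 24.3% in all 27305 promoters of the table. Over all calls of any size the contrast was smaller. The letters were then in 22.4% of the 1319 promoters of genes called higher and 13% of those called lower. Of the called genes that rose at least 2-fold, 3 large rises with a match are shown, with the match in capitals. Not every gene was eligible to be shown here or below, so larger changes with a match may exist.

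KIF20A, chr5:138178862-138179161, plus strand: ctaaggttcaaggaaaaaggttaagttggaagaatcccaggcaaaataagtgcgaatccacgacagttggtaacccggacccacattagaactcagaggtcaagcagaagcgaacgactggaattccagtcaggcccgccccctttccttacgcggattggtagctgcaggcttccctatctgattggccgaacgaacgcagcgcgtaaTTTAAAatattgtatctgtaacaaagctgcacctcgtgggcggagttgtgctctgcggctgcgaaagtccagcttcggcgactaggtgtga

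CDCA3, chr12:6851237-6851536, minus strand: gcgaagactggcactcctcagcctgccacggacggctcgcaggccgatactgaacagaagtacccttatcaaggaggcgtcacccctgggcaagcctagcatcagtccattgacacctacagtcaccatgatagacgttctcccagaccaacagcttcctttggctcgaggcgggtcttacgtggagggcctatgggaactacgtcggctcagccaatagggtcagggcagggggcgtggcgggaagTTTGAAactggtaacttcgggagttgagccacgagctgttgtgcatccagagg

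DLGAP5, chr14:55191536-55191835, minus strand: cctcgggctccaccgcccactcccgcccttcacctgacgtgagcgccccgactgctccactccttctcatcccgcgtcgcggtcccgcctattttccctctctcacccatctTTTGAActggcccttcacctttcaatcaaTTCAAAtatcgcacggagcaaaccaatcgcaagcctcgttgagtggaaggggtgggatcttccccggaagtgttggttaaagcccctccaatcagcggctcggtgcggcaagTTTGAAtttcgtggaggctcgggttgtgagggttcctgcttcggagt

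TGANTCA, the letters of the AP-1 site, was in 18.9% of the 90 promoters of genes called lower at least 2-fold, which is 17 promoters. It was in 5.0% of the 340 of genes called higher at least 2-fold. The shares were 4.70% in the genes tested and 7.76% in all promoters. Over all calls of any size it was in 5.85% of the 1469 promoters of genes called lower. Among the 1319 called higher the share was 5.08%. Both are near that of the genes tested, so the high share was seen in the larger falls only. Next are 3 large falls with a match.

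PRSS3, chr9:33795311-33795610, plus strand: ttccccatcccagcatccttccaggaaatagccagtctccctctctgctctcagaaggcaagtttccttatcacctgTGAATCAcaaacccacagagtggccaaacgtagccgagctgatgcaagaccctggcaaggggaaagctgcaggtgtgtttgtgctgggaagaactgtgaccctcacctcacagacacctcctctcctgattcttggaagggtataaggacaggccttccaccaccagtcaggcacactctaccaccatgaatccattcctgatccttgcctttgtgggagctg

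SPRR2A, chr1:153057463-153057762, minus strand: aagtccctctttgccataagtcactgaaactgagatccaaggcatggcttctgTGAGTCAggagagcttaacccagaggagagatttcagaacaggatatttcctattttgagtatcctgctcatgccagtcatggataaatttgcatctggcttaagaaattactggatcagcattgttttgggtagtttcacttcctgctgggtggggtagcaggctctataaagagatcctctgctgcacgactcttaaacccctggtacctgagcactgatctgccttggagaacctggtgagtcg

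MMP7, chr11:102530698-102530997, minus strand: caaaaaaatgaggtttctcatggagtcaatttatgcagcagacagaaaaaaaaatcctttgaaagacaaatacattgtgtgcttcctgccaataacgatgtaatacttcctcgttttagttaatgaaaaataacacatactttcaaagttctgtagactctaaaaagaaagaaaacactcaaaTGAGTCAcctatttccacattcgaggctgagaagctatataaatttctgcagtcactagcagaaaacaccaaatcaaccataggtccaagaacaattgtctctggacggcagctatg

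The E-box CACGTG, to which MYC with MAX and the other proteins of that network bind, was in 37.9% of the 66 promoters of the ribosome biogenesis list, in 10.3% of the genes tested and in 7.43% of all promoters. GTCACGTG, which contains it, was in 9.09% of that list and in 4.58% of the genes tested. The list shares take in tested members that did not fall. Over all genes CACGTG was in 12.5% of the promoters of those called lower and 9.4% of those called higher. It was in 10.0% of those called lower at least 2-fold. These shares are near the 10.3% of the genes tested. Among the larger falls in that list with a match were RRP9, PNO1 and NOP14. PNO1, a factor of the small ribosomal subunit, was named after its value was seen.

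RRP9, chr3:51941855-51942154, minus strand: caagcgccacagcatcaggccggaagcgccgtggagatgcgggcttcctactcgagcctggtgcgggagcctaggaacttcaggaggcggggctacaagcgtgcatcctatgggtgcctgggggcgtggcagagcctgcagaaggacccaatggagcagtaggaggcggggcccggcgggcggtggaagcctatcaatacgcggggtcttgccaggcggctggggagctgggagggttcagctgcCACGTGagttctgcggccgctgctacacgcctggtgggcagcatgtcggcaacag

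PNO1, chr2:68157638-68157937, plus strand: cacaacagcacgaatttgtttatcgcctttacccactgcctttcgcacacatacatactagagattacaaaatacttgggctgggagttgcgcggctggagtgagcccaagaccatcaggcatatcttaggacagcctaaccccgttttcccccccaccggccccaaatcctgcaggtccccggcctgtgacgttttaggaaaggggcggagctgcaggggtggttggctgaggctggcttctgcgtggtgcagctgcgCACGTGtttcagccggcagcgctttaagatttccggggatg

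NOP14, chr4:2963357-2963656, minus strand: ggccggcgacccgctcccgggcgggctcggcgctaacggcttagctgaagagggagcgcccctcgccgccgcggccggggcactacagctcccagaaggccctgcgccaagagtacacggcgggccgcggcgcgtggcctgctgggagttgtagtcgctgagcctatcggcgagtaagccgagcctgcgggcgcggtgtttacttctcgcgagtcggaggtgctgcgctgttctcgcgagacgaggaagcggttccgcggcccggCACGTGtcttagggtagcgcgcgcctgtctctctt

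Of the other motifs searched, CCAAT was in 44.7% of the promoters of genes called higher at least 2-fold, 26.7% of those called lower at least 2-fold and 37.4% of those tested, CATTCC (TEAD) in 16.5%, 13.3% and 10.7%, TATAAA in 11.2%, 12.2% and 5.68%, the interferon response element in 6.47%, 3.33% and 2.89%, and TGTTTAC (forkhead) in 2.65%, 3.33% and 2.27%. These shares are descriptions without a test, and a match is not a bound site.

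The largest rises were in genes of several unrelated kinds. SRGN, the core protein of an intracellular proteoglycan of secretory granules, read 9.94, 10.51, 10.23 and 10.57 on the 4 CYT2 arrays and 4.95, 5.04, 5.25 and 4.97 on the 4 VEC arrays, where it was above background on none. It was at least 28.1-fold higher in CYT2 (adjusted p = 4.63e-05); this and every other "at least" sets the brighter group against the lowest detected signal of each array, or the dim probe's own where that is higher. ACKR1, the atypical receptor that binds chemokines without signalling through G proteins, read 9.23, 9.06, 9.03 and 9.17 in CYT2 and 4.75, 4.91, 4.71 and 4.84 in VEC. It too was undetected in VEC and was at least 12.3-fold higher (adjusted p = 1.6e-05). DCN, the gene of the collagen-binding proteoglycan decorin, read 10.86, 10.79, 10.92 and 10.77 in CYT2 and 6.86, 6.78, 6.84 and 6.68 in VEC. The groups were far apart, with a change of 4.05 ± 0.08 (SE of the model, as for every error that follows; adjusted p = 1.6e-05). FBXO32, a ubiquitin ligase subunit known from muscle wasting, read 11.30, 11.20, 11.34 and 11.21 in CYT2 and 7.38, 7.30, 7.41 and 7.14 in VEC, a rise of 3.95 ± 0.08.

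Several of the 15 largest rises were mitotic genes. KIF20A, a kinesin of the late spindle, read 9.62, 9.86, 9.77 and 9.82 in CYT2 and 6.03, 6.24, 6.36 and 6.15 in VEC (3.57 ± 0.09). AURKB, the kinase of the chromosomal passenger complex, read 9.51, 9.73, 9.41 and 9.58 in CYT2 and 6.17, 5.96, 6.19 and 6.13 in VEC (3.45 ± 0.10). CDCA3, a trigger of mitotic entry that is undetected in VEC, was at least 6.33-fold higher. DLGAP5, which stabilises spindle microtubules, rose by 3.30 ± 0.10 and TOP2A, which untangles replicated DNA, by 3.18 ± 0.15. The promoters of KIF20A, CDCA3 and DLGAP5 are among those printed above. The others of the 15 were ANKRD1, a nuclear co-factor often used as a YAP target (undetected in VEC, at least 6.94-fold), the interferon-induced IFI44L (3.05 ± 0.11), PLAC8 (2.97 ± 0.11), the hair keratin KRT34 (2.96 ± 0.10), the matricellular CCN2 (2.96 ± 0.08) and the small heat shock protein CRYAB (2.95 ± 0.14).

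The falls were smaller and also in genes of several kinds, SPRR genes of the cornified envelope among them. HS3ST1, which adds the 3-O-sulfate of heparan sulfate, read 6.63, 5.43, 5.62 and 6.20 in CYT2 and 8.78, 8.51, 8.52 and 8.32 in VEC (-2.56 ± 0.14, adjusted p = 0.000185). PRSS3, a trypsinogen, read 7.56, 8.13, 7.82 and 8.05 in CYT2 and 9.93, 10.03, 10.15 and 10.36 in VEC (-2.23 ± 0.14), and its relative PRSS2 fell by 1.77 ± 0.23. SPRR2A, a precursor of the cornified envelope, read 10.44, 10.56, 10.54 and 10.80 in CYT2 and 12.70, 12.64, 12.61 and 12.47 in VEC (-2.02 ± 0.10). FLRT3, a membrane protein that binds FGF receptors and netrin receptors, read 9.11, 9.05, 9.23 and 8.98 in CYT2 and 11.21, 11.26, 11.28 and 11.34 in VEC (-2.17 ± 0.09). MMP7, or matrilysin, read 9.13, 8.85, 9.13 and 9.07 in CYT2 and 11.07, 11.07, 11.03 and 11.04 in VEC (-2.01 ± 0.08). No CYT2 array of these 5 genes reached the lowest VEC array.

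Others of the 15 largest falls were ERVMER34-1, an envelope gene of a human endogenous retrovirus (-2.23 ± 0.12), SPRR2E (-2.18 ± 0.17), the decoy receptor TNFRSF6B (-2.16 ± 0.09), the neurotensin receptor NTSR1, detected on 1 of 4 CYT2 arrays (-2.03 ± 0.14), and NPTX1, a pentraxin of synapses also detected on 1 (-1.95 ± 0.12). The calcium-activated chloride channel ANO1 fell by 1.86 ± 0.14 and LRAT, which esterifies retinol, by 1.82 ± 0.11. WNT10B was above background on 0 of the 4 CYT2 arrays and at least 2.33-fold lower, and THBD, the thrombin receptor thrombomodulin, was undetected in CYT2 as well and at least 2.48-fold lower. Probes of SPRR2 and PRSS genes may not tell near-identical members apart.

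**Figure D2:**
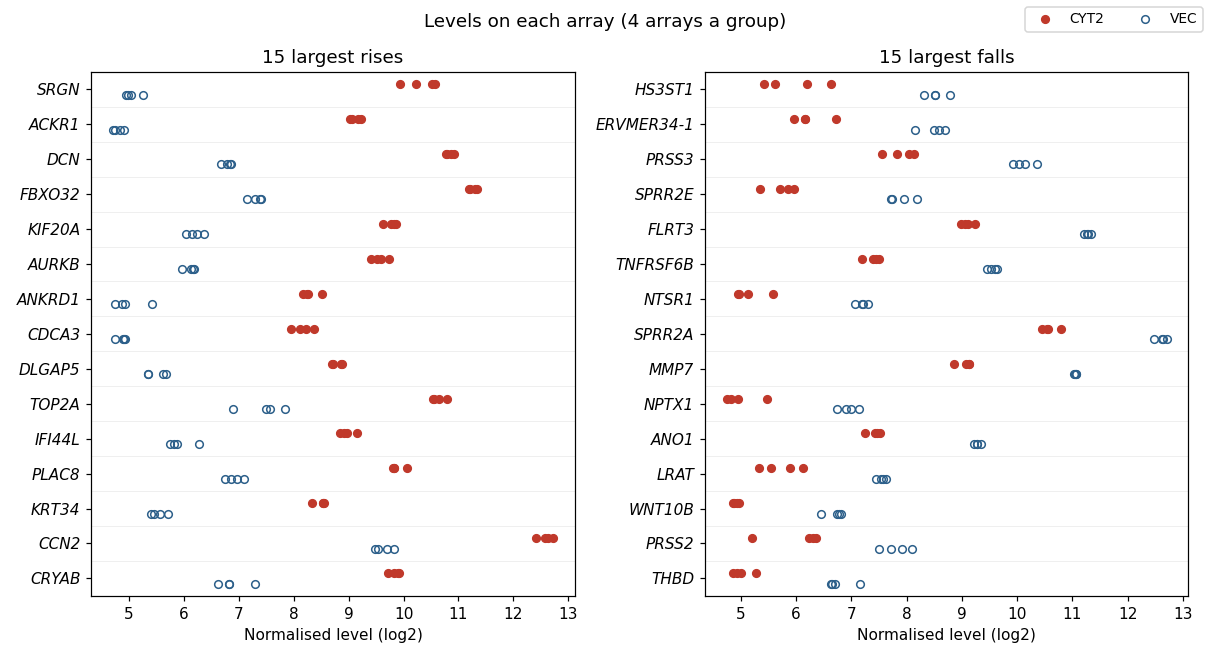
Normalised levels (log2, x axis) of the 15 largest rises and the 15 largest falls on each array, with 4 filled CYT2 points and 4 open VEC points a gene. The groups do not overlap in any of the 30 genes, as the choice of genes required.

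In 97 genes the probe was above background on all 4 CYT2 arrays and on 0 of 4 VEC arrays, and in 32 on all 4 VEC arrays and on 0 of 4 CYT2 arrays. Beside SRGN, ACKR1, ANKRD1 and CDCA3 the largest bounds upward belonged to CADM3, an adhesion molecule of neurons (at least 5.42-fold), LMCD1, a LIM domain co-factor (at least 5.35-fold), C1R, the first protease of the complement cascade (at least 5.12-fold), PTGER2, a prostaglandin E receptor (at least 4.75-fold), IFITM1, an antiviral membrane protein (at least 4.65-fold), and LIMCH1, which activates non-muscle myosin (at least 4.25-fold). C1R read 7.94, 7.83, 7.85 and 7.79 in CYT2 and 4.93, 4.75, 4.78 and 5.22 in VEC. Downward, beside THBD and WNT10B, stood the collagenase MMP1 (at least 2.28-fold lower), the cholesterol sulfotransferase SULT2B1 (at least 1.92-fold), the tight junction protein MARVELD3 (at least 1.79-fold), UFSP1 (at least 1.68-fold), the glycerol channel AQP3 (at least 1.6-fold) and the adhesion receptor ADGRF4 (at least 1.6-fold). SCLT1 (at least 1.66-fold) and PLA2G7 (at least 1.59-fold) complete the 10, but their calls ended without CYT2 replicate 1 or CYT2 replicate 2, with adjusted p up to 0.108 and 0.0832 by limma.

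Genes that build ribosomes fell together. Of 78 measured factors, 53 were called lower and 2 higher, 67.9% and 2.56%, against 17.6% and 16.1% of all genes, and the median difference (log2) was -0.48, against -0.05 for all genes tested. RRP12, a factor of both subunits, read 8.44, 8.60, 8.81 and 8.91 in CYT2 and 9.68, 9.63, 9.60 and 9.67 in VEC (-0.96 ± 0.13, adjusted p = 0.00366). NOP14, of the small subunit processome, read 8.30, 8.31, 8.17 and 8.10 in CYT2 and 9.18, 8.90, 8.91 and 9.13 in VEC (-0.81 ± 0.13). PNO1, which follows the small subunit out of the nucleus, read 7.97, 7.70, 7.82 and 7.89 in CYT2 and 8.69, 8.72, 8.77 and 8.61 in VEC (-0.85 ± 0.11). RRP9, which recognises the U3 snoRNP, fell by 0.99 ± 0.18, TBL3 by 0.95 ± 0.17, RRP1B by 0.76 ± 0.12 and NOP56, a core protein of box C/D snoRNPs, by 0.59 ± 0.10. The factors that rose were NOP53, a late factor of the large subunit (0.58 ± 0.09), and the helicase DDX51 (1.17 ± 0.09), another probe of which fell. The call of RRP9 ended without CYT2 replicate 2 or VEC replicate 2 (adjusted p up to 0.0575 by limma) and that of TBL3 without VEC replicate 2 (0.0504). With any 1 of the 4 replicates of CYT2 and VEC left out, 26 to 32 members were lower, 33.3% to 41.0%, against 8.39% to 9.09% of all genes, and 2 higher. With the deposited log2 values 67 were lower and 2 higher, against 30.5% of all genes lower, and over all settings the median ran from -0.60 to -0.39.

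Lists of neighbouring steps held more falls than rises. The shares lower were 37.0% (RNA modification), 30.0% (polymerase), 23.1% (translation) and 10.9% (exosome), against 17.6% of all genes. The exosome list was thus below all genes in falls. Shares higher ran from 1.82% to 5.77%, against 16.1% of all genes. Of 54 enzymes that modify tRNA and other RNA, 20 were lower and 1 higher (median -0.25). WDR4, the partner of METTL1 in tRNA methylation, fell by 0.95 ± 0.09 and the pseudouridine synthase PUS3 by 0.91 ± 0.13, while TRMT5 rose by 0.66 ± 0.10. Of 60 RNA polymerase subunits and general initiation factors, 18 were lower and 3 higher (median -0.20), among them POLR1F, a subunit of RNA polymerase I (-0.71 ± 0.10), and TAF12 (-0.66 ± 0.09), against TAF1C of the RNA polymerase I selectivity factor (0.67 ± 0.09). The other members that rose, TAF15 (0.52) and POLR2A (0.34), were named after their values were seen, and the call of POLR2A ended without any 1 of the 4 replicates (adjusted p up to 0.106 by limma). Of 52 translation factors 12 were lower and 3 higher (median -0.17). EEF1A2, the elongation factor of muscle and neurons, read 7.61, 7.89, 7.94 and 7.66 in CYT2 and 9.16, 9.29, 9.08 and 9.24 in VEC (-1.42 ± 0.08), EIF2S2 fell by 0.54 ± 0.09 and EIF2B1 by 0.50 ± 0.08. Of 55 genes of the exosome, decapping and deadenylation 6 were lower and 1 higher, 12.7% called in all, below the 33.6% of all genes. EXOSC7 fell by 0.57 ± 0.08. Without 1 or another replicate 6 to 11 of the RNA modification enzymes, 8 or 9 of the polymerase list and 4 or 5 of the translation factors were lower. As shares these are 11.1% to 20.4%, 13.3% to 15% and 7.69% to 9.62%, against 8.39% to 9.09% of all genes, so the translation factors then stood at the share of all genes. Of the exosome list 1 to 3 were then lower.

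MYC itself, named after its value was seen, read 10.92, 11.18, 11.03 and 11.06 in CYT2 and 11.61, 11.80, 11.57 and 11.74 in VEC (-0.63 ± 0.08, adjusted p = 0.00267). In the list of the MYC, MAX and MLX network 4 of 14 members rose and 4 fell. MXD3, an antagonist of MYC that is made in cycling cells, was undetected in VEC and at least 2.29-fold higher, with 6.55, 6.70, 6.74 and 6.78 in CYT2 and 4.64, 4.77, 4.84 and 4.57 in VEC. MXD4 rose by 0.92 ± 0.08. TXNIP, a target of the MLX arm that restrains glucose uptake, fell by 0.65 ± 0.10. The E-box share among promoters of the ribosome list stands beside these values and its part in them was not tested.

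Symbol families were formed without any list. Those shown were chosen by their medians in these same data, so many called members follow in part from the choice. Their counts stand against 16.1% of all genes higher and 17.6% lower. With a replicate left out, fewer of all genes were called as well. Of 266 families with at least 6 genes tested that share the letters of their symbol before the first digit, the 8 lowest medians were those of SPRR (-1.38, 6 of 7 lower), RRP (-0.64, 6 of 9 lower and 1 higher), SOCS (-0.47, 3 of 7 lower), PAQR (-0.45, 4 of 6 lower and 1 higher), SERPINB (-0.41, 3 of 6 lower), NOP (-0.41, 4 of 7 lower and 1 higher), UTP (-0.37, 5 of 10 lower) and THAP (-0.36, 5 of 7 lower). In the SPRR family SPRR1B fell by 1.70 ± 0.09 beside SPRR2A and SPRR2E. SOCS2, a feedback inhibitor of STAT5 signalling, read 9.86, 9.71, 9.81 and 9.84 in CYT2 and 11.59, 11.26, 11.33 and 11.36 in VEC (-1.58 ± 0.08), and SERPINB5, the gene of maspin, fell by 0.59 ± 0.09. PAQR5, a membrane progesterone receptor, fell by 0.85 ± 0.13. Without 1 or another replicate the lower members were 5 or 6 in SPRR, 4 to 6 in RRP, 1 to 3 in SOCS, 1 or 2 in PAQR, 1 to 3 in SERPINB, 2 or 3 in NOP, 0 to 3 in UTP and 1 or 2 in THAP.

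The 8 highest family medians were those of CDCA (1.53, 5 of 7 higher and 1 lower), KIF (1.04, 11 of 19 higher), AKR (0.63, 4 of 7 higher), COL (0.59, 10 of 19 higher and 2 lower), KLK (0.50, 5 of 6 higher), IFI (0.46, 7 of 9 higher), SNHG (0.38, 5 of 12 higher and 2 lower) and SNORA (0.38, 13 of 28 higher). These families were chosen in the same way, and 16.1% of all genes were higher and 17.6% lower. The kinesins KIF2C, which removes tubulin from microtubule ends, and KIF23 of the midbody rose by 2.57 ± 0.10 and 2.23 ± 0.14, and CDCA8, of the passenger complex with AURKB, by 1.99 ± 0.09. The collagens COL8A1 (2.44 ± 0.09) and COL6A3 (2.09 ± 0.14) led theirs. KLK5, a kallikrein peptidase of skin, read 10.62, 10.46, 10.70 and 10.70 in CYT2 and 9.49, 9.32, 9.54 and 9.41 in VEC (1.18 ± 0.10), with KLK6 (0.74 ± 0.11) and KLK10 (0.65 ± 0.11) beside it. IFI27 rose by 1.96 ± 0.12 and IFI6 by 1.72 ± 0.09. Among host genes of snoRNAs SNHG5 rose by 0.92 ± 0.08 and SNHG15 fell by 0.75 ± 0.08, and of box H/ACA snoRNAs SNORA10 rose by 1.14 ± 0.10 and SNORA61 by 1.11 ± 0.09. NOP56, which fell, belongs to box C/D snoRNPs and not to those of box H/ACA. Whether these probes read mature snoRNAs or longer precursor transcripts was not examined. Without 1 or another replicate the higher members were 4 in CDCA, 10 or 11 in KIF, 4 in AKR, 9 or 10 in COL, 3 in KLK, 3 to 5 in IFI, 3 or 4 in SNHG and 4 to 11 in SNORA.

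**Figure D3:**
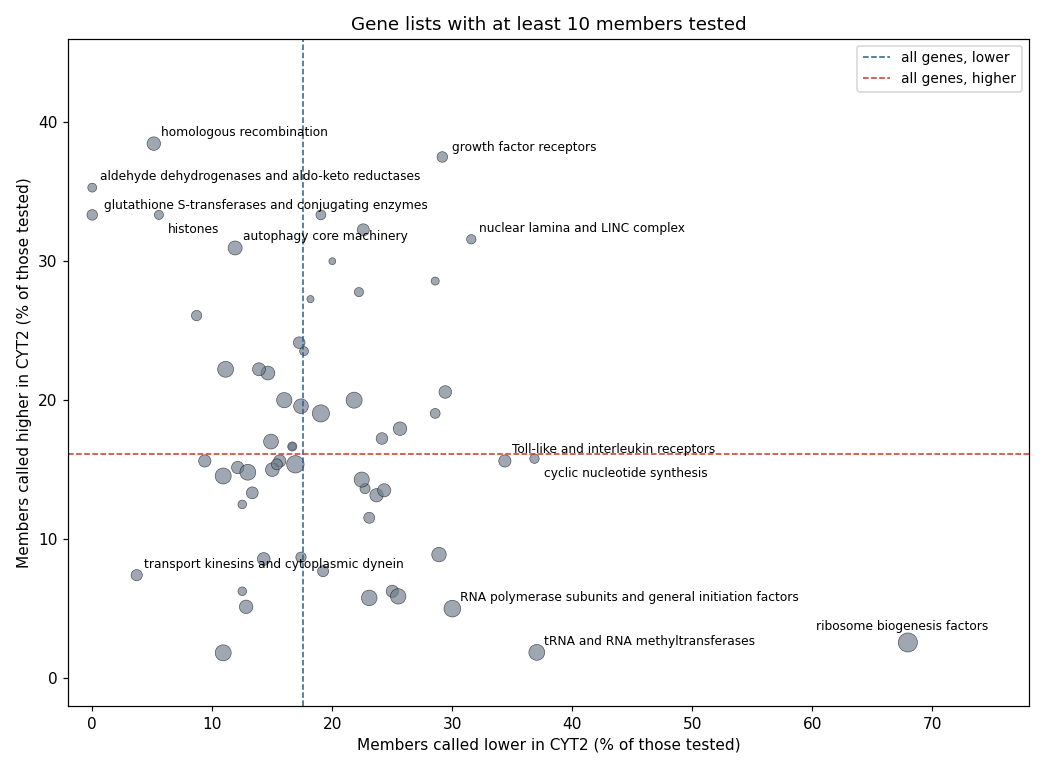
Each circle is a list with at least 10 members tested, its area set by the number tested, with the share of members called lower in CYT2 on the x axis and called higher on the y axis (both in %). The dashed lines mark the shares of all genes, 17.6% lower and 16.1% higher, and ribosome biogenesis factors stand apart at 67.9% lower.

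Of the 66 gene lists, 40 had a larger called share than all genes. The counts of lists here and below stand against 16.1% of all genes higher and 17.6% lower. Without 1 or another replicate fewer of all genes were called as well. A smaller count in a list under that setting is therefore not by itself a result about its members. Of the lists that leaned upward, that of homologous recombination and the Fanconi anaemia pathway had 15 of 39 members higher and 2 lower, 38.5% and 5.13%, with a median of 0.25. POLQ, the polymerase of microhomology-mediated end joining, read 7.77, 7.57, 7.80 and 7.79 in CYT2 and 6.22, 6.58, 6.85 and 6.08 in VEC (1.30 ± 0.09), EXO1, which resects DNA ends, rose by 1.21 ± 0.09, FANCI by 1.05 ± 0.13 and RAD54L by 1.0 ± 0.10. FANCE (-0.58) and PALB2 (-0.36), named after their values were seen, fell, and the call of PALB2 ended without any 1 of the 4 replicates (adjusted p up to 0.139 by limma). Without 1 or another replicate 11 to 13 were higher and 1 lower. Excision, mismatch and end-joining repair went both ways, with 9 of 46 higher and 8 lower: the glycosylase NEIL3 rose by 1.62 ± 0.14 and TDP1, which clears topoisomerase I adducts, by 0.97 ± 0.10, whereas TDP2, which clears topoisomerase II adducts, fell by 1.0 ± 0.16. Of 18 histone genes 6 were higher and 1 lower, H2AC6 (0.76 ± 0.09), H2BC5 (0.75 ± 0.09), H2AX (0.63 ± 0.11) and H2AC18 (0.52 ± 0.09) among them, and MACROH2A2 at -0.36 was the one lower, named after its value was seen, and its call ended without any 1 of the 4 replicates (adjusted p up to 0.116 by limma). A few genes stand in more than 1 list, so the counts of the lists are not fully separate. Leaving out each replicate in turn left 5 to 7 higher and 5 or 6 lower in excision, mismatch and end-joining repair and 4 or 5 higher and 0 lower among the histones.

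Of 42 members of the autophagy machinery 13 rose and 5 fell (median 0.15). ULK1, the kinase that starts the process, read 10.17, 10.13, 10.20 and 10.26 in CYT2 and 8.84, 8.65, 8.77 and 8.53 in VEC (1.49 ± 0.09). GABARAPL1, which coats the growing membrane, read 9.19, 9.31, 8.89 and 9.22 in CYT2 and 7.57, 7.78, 7.67 and 7.59 in VEC (1.5 ± 0.10). WIPI1, which reads the lipid of the early membrane, rose by 1.43 ± 0.14, and the receptor CALCOCO1 was undetected in VEC and at least 2.21-fold higher. Members that fell (picked once their values were seen) were ATG16L1 (-0.81), ATG5 (-0.63), PIK3R4 (-0.46), TAX1BP1 (-0.45) and ATG3 (-0.34), of which ATG16L1, ATG5 and ATG3 belong to the conjugation of LC3. The calls of PIK3R4, TAX1BP1 and ATG3 ended without at least 3 of the 4 replicates in turn (adjusted p up to 0.0847, 0.0908 and 0.131 by limma). Without 1 or another replicate 9 or 10 were higher and 2 or 3 lower, and with the deposited log2 values 8 were higher and 8 lower.

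In the list of glutathione S-transferases and conjugating enzymes 8 of 24 were higher and 0 lower by limma. NNMT, which methylates nicotinamide, read 11.79, 11.85, 11.62 and 11.61 in CYT2 and 9.05, 9.0, 8.91 and 9.0 in VEC (2.73 ± 0.10), GSTA4 rose by 1.46 ± 0.13, GSTM1 by 0.99 ± 0.17 and GPX8 by 0.90 ± 0.10. Of 17 aldehyde dehydrogenases and aldo-keto reductases 6 were higher and 0 lower: ALDH7A1 rose by 1.29 ± 0.09, AKR1C4 by 1.28 ± 0.11, AKR1C2 by 1.08 ± 0.11 and AKR1C3 by 0.83 ± 0.11, though probes of the AKR1C genes may not separate these close copies. With the deposited log2 values 2 of the conjugating list (8.33%) and 3 of the aldehyde and aldo-keto list (17.6%) were lower, against 30.5% of all genes. Of 31 cytochromes P450, sulfotransferases and hydroxysteroid dehydrogenases 10 were higher and 7 lower, with SULT1A1 (1.18 ± 0.10) against CYP4V2 (-0.98 ± 0.12) and with HSD17B2, which inactivates estradiol, undetected in VEC and at least 1.46-fold higher. Without 1 or another replicate 5 to 7 of the conjugating list, 5 or 6 of the aldehyde and aldo-keto list and 4 of the cytochrome list were higher, and 3 to 5 of the last were lower.

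**Figure D4:**
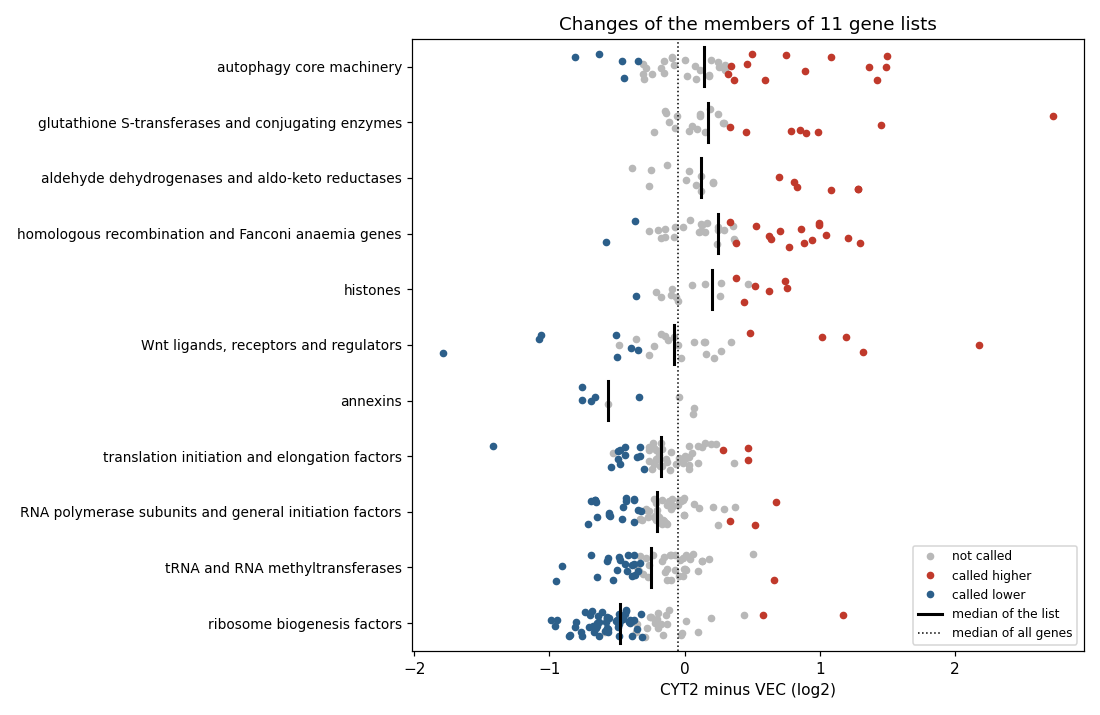
CYT2 minus VEC differences (log2, x axis) of every tested member of 11 lists, coloured by call, with the median of each list as a bar and the median of all genes as a dotted line. The bar of the ribosome biogenesis factors stands at -0.48 and that of homologous recombination at 0.25.

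Metabolic lists held changes in both directions. In the list of polyamine and one-carbon metabolism 7 of 29 rose and 5 fell, and the members that rose included SAT1 (1.18 ± 0.08) and SMOX (0.86 ± 0.08), which break polyamines down, while SRM (-0.52) and ODC1 (-0.45), which make them and were named after their values were seen, fell. The call of SRM ended without CYT2 replicate 2 or VEC replicate 1 and that of ODC1 without CYT2 replicate 1 or VEC replicate 1 (adjusted p up to 0.0524 and 0.0626 by limma). GGH, which trims folates, rose by 1.28 ± 0.09. Of 65 genes of purine, pyrimidine and NAD metabolism 10 rose and 11 fell: KYNU, of the kynurenine route to NAD, read 11.39, 11.33, 11.44 and 11.42 in CYT2 and 10.14, 10.11, 9.98 and 9.89 in VEC (1.37 ± 0.10), NMNAT2 rose by 1.38 ± 0.10 and ADSS1 by 1.31 ± 0.13, and XDH, which makes uric acid, read 7.20, 7.08, 7.37 and 6.78 in CYT2 and 8.76, 8.63, 8.87 and 8.55 in VEC (-1.60 ± 0.08). In the list of the citric acid cycle and pyruvate dehydrogenase 8 of 36 rose and 5 fell, with the inhibitory kinases PDK4 (1.27 ± 0.08) and PDK3 (0.87 ± 0.11) and IDH1 (0.87 ± 0.08) against OGDH (-0.72 ± 0.10). Of 54 genes of peroxisomes and fatty acid oxidation 12 rose and 6 fell, with ETFB (1.11 ± 0.09) against ACOX2 (-1.11 ± 0.11). The count of rises in the peroxisome list rested on every replicate: without 1 or another replicate 1 or 2 of the 54 were higher, 1.85% to 3.7%, against 10.7% to 11.1% of all genes, and 2 to 4 lower. When 1 replicate at a time was dropped there were 5 or 6 higher and 1 to 3 lower in the polyamine list, 3 or 4 higher and 3 or 4 lower in the citric acid cycle list and 7 to 9 higher and 6 or 7 lower in the purine list.

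APOE, the carrier of lipids between cells, read 8.58, 8.76, 8.76 and 8.98 in CYT2 and 6.84, 6.69, 6.5 and 6.27 in VEC (2.19 ± 0.15), and APOD rose by 1.09 ± 0.12, in a list of lipoprotein receptors and lipid carriers in which 5 of 32 rose and 3 fell. Of 39 phospholipases and lysophospholipid enzymes 7 rose and 10 fell, 17.9% and 25.6%, against 16.1% and 17.6% of all genes. Among those upward were PLD1 (1.48 ± 0.11), LPIN1 (0.94 ± 0.08) and the triglyceride lipase PNPLA2 (0.86 ± 0.09). Of 32 sphingolipid genes 5 rose and 5 fell, among them ORMDL3 (0.87 ± 0.14). Of 40 genes of iron, heme and copper 6 rose and 6 fell, with the iron reductase CYBRD1 (1.10 ± 0.11), HMOX1 (0.98 ± 0.17) and SOD2 (0.84 ± 0.08) against BOLA2 (-0.61 ± 0.10). Carriers of mitochondria and organelles leaned down, with 13 of 45 lower and 4 higher, 5 to 7 and 1 or 2 without 1 or another replicate. SLC35A3, which carries a sugar nucleotide into the Golgi, fell by 0.71 ± 0.08, SLC25A13 by 0.69 ± 0.09 and SLC35C1 by 0.63 ± 0.10, whereas the citrate carrier SLC25A1 rose by 1.04 ± 0.10. Of 37 mucin and O-glycan genes 5 rose and 9 fell, with GCNT1 (0.86 ± 0.11) against B3GNT3 (-0.84 ± 0.14). With any 1 replicate left out, fewer lipid carriers, phospholipases, sphingolipid genes and mucin genes were called in each direction, as among all genes. Fewer of the iron list were then lower.

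Signalling ligands and receptors changed in both directions within their families, in lists to be set against 16.1% of all genes higher and 17.6% lower. Among Wnt ligands WNT5A read 8.33, 8.22, 8.58 and 8.19 in CYT2 and 6.10, 6.16, 6.42 and 5.94 in VEC (2.18 ± 0.09), and WNT5B read 7.35, 7.27, 7.21 and 7.02 in CYT2 and 5.95, 5.91, 5.92 and 6.29 in VEC (1.20 ± 0.13). Both are ligands that mostly act without beta-catenin. WNT10B, undetected in CYT2, and WNT7A (-1.06 ± 0.08, named after its value was seen) were lower. Of the receptors FZD2 rose by 1.32 ± 0.16, and of the whole Wnt list 5 of 29 rose and 7 fell. In the BMP list 5 of 18 rose and 4 fell: BMP2 read 6.12, 6.07, 6.44 and 6.51 in CYT2 and 7.73, 7.80, 7.93 and 7.92 in VEC (-1.56 ± 0.19), the activin antagonist FST fell by 1.19 ± 0.09, and FSTL1 rose by 1.54 ± 0.09 and CRIM1 by 0.71 ± 0.11. Leaving out each replicate in turn left 4 or 5 higher and 2 to 5 lower in the Wnt list and 4 or 5 higher and 3 lower in the BMP list.

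Of 24 growth factor receptors outside the ERBB family and their ligands 16 were called, 9 higher and 7 lower. These are 37.5% and 29.2%, against 16.1% and 17.6% of all genes. PROS1, a ligand of the TAM receptors and an anticoagulant, read 9.69, 9.31, 9.59 and 9.74 in CYT2 and 7.78, 7.85, 7.73 and 7.62 in VEC (1.84 ± 0.10). FGF2 read 9.78, 9.79, 9.88 and 9.78 in CYT2 and 8.30, 8.45, 8.09 and 8.01 in VEC (1.59 ± 0.12), and PDGFRL was undetected in VEC and at least 1.84-fold higher. MST1R, the RON receptor tyrosine kinase, read 8.24, 7.74, 7.90 and 7.95 in CYT2 and 9.12, 9.36, 9.22 and 9.48 in VEC (-1.33 ± 0.08). Semaphorins were split, with SEMA3E up by 0.82 ± 0.08 and SEMA3A (-1.18 ± 0.11) and FLRT3 down, in a list with 2 of 26 higher and 5 lower. In the list of phosphoinositide 3-kinase and AKT 10 of 50 rose and 8 fell. RPS6KA1, the kinase RSK1, read 8.77, 8.62, 9.08 and 8.73 in CYT2 and 10.05, 9.93, 10.32 and 9.89 in VEC (-1.25 ± 0.11), TRIB1 fell by 1.25 ± 0.08 and PHLDA1 by 1.09 ± 0.09. Named after their values were seen, FOXO1 (0.79), FOXO4 (0.75), PIK3IP1 (0.72) and INPP4B (0.62) were among the members that rose, which restrain or are restrained by this pathway. The call of INPP4B ended without CYT2 replicate 1 or VEC replicate 1 (adjusted p up to 0.0524 by limma). When 1 replicate at a time was dropped there were 5 or 6 higher and 3 or 4 lower among growth factor receptors and ligands, 1 to 3 higher and 2 to 4 lower among semaphorins and 6 to 10 higher and 4 to 6 lower in the phosphoinositide list.

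Receptors and channels of the surface gave single large changes. Among all genes 16.1% were higher and 17.6% lower. Of 34 G protein-coupled receptors 7 were higher and 10 lower, ACKR1 and SSTR2 (1.35 ± 0.23) against NTSR1 and the adhesion receptors ADGRF1, which read 7.48, 7.74, 7.41 and 7.69 in CYT2 and 9.04, 9.27, 9.06 and 8.98 in VEC (-1.51 ± 0.12), and ADGRF4. Of 26 RGS proteins and G protein subunits 3 were higher and 6 lower, with GNG11 (1.03 ± 0.09) against RGS20 (-0.77 ± 0.09), RGS17 (-0.68 ± 0.09) and GNG5 (-0.66 ± 0.10). Of 19 genes of cyclic nucleotides and protein kinase A 3 were higher and 7 lower, and CREB1, at 0.89 ± 0.08, had another probe that fell. Of 17 chloride channel genes 4 were higher and 3 lower: CLCA2 rose by 1.69 ± 0.08, and ANO1 and LRRC8C (-1.15 ± 0.10) fell. Of 22 cation channels 3 were higher and 5 lower, KCNMA1 (-0.92 ± 0.08), KCNJ15 (-0.86 ± 0.14) and KCNN4 (-0.76 ± 0.12) downward and KCNK2, undetected in VEC, at least 1.22-fold upward. Carbonic anhydrases went both ways, CA12 rising by 1.16 ± 0.10 and CA2 falling by 1.06 ± 0.08, with 2 higher and 2 lower of 5 in their list with the aquaporins. Connexins and pannexins had 2 of 6 higher, PANX2 (0.82 ± 0.12) and GJC1 (0.72 ± 0.09), and 2 lower, GJB5 (-1.32 ± 0.10) and GJB2 (-0.57 ± 0.09). Only 0 to 3 of the cyclic nucleotide list were lower, and 2 or 3 higher, without 1 or another replicate. With any 1 replicate left out there were 5 or 6 higher and 6 to 8 lower among the coupled receptors, 2 or 3 higher and 3 lower among chloride channels and 1 to 3 higher and 4 or 5 lower among cation channels.

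Adhesion and cytoskeletal lists were mixed apart from the annexins. Of 9 annexins 5 were lower and 0 higher by limma (median -0.57, from -0.60 to -0.05 over the settings tried), with ANXA11 (-0.76 ± 0.09), ANXA8 (-0.69 ± 0.09) and ANXA3 (-0.67 ± 0.09), and ANXA8L1 is a near copy of ANXA8. By symbol alone 13 ANXA genes were tested, 5 lower and 1 higher, with a median of -0.24. The 1 higher was ANXA2P2 (0.335 ± 0.093), which is outside the list. Galectins had 3 of 6 higher and 1 lower, with LGALS3BP (1.04 ± 0.11) and LGALS8 (0.54 ± 0.08) against LGALS7B (-1.55 ± 0.17), detected on 2 of 4 CYT2 arrays. Of 47 RAB genes 8 were higher and 7 lower, RAB40B (0.91 ± 0.09) and RAB13 (0.89 ± 0.12) against RAB27B of exosome release (-0.81 ± 0.09). Of 41 tubulins and microtubule-associated proteins 9 were higher and 6 lower, STMN1, which sequesters tubulin (1.42 ± 0.08), against STMN3 (-0.94 ± 0.12) and MAP7D3 (-1.12 ± 0.16). Of 49 myosins and actin nucleators 7 were higher and 11 lower, DIAPH3 (1.47 ± 0.21) and MYL6B (0.85 ± 0.10) against MYO5B (-0.97 ± 0.17). Of 10 septins and anillin 3 were higher and 2 lower: ANLN, of the contractile ring, read 10.42, 10.65, 10.56 and 10.51 in CYT2 and 8.61, 8.40, 8.61 and 8.63 in VEC (1.97 ± 0.08), and SEPTIN5 rose by 0.91 ± 0.09. Lamins were split, with LMNB1 up by 0.79 ± 0.09 and LMNA down by 0.56 ± 0.09, in a list of the nuclear lamina with 6 of 19 higher and 6 lower. Leaving out each replicate in turn left 4 or 5 higher and 3 to 6 lower among RAB genes, 4 to 6 higher and 3 to 6 lower among tubulins, 4 or 5 higher and 6 or 7 lower among myosins, 2 higher and 0 lower among septins and 3 or 4 higher and 3 lower in the lamina list. Of the annexins 3 to 5 were then lower.

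Other lists of this kind had called shares on both sides of the 33.6% of all genes. Protocadherins and atypical cadherins (45.5%) and isomerases and selenoproteins (38.1%) stood above it, and the rest below it. The list of 14-3-3 proteins and phosphatases had 5.88% higher and 25.5% lower, against 16.1% and 17.6% of all genes. Of 27 transport kinesins and dynein subunits 2 were higher, KIF3C among them, undetected in VEC and at least 1.43-fold up, and 1 lower. Of 33 ciliary genes 5 were higher, led by IFT122 (1.10 ± 0.12), and 4 lower. Of 16 tetraspanins 2 were higher and 2 lower, and of 11 protocadherins and atypical cadherins 3 were higher and 2 lower, CELSR3 (-0.53 ± 0.09) among the last. Of 51 subunits of 14-3-3 proteins and phosphatases 3 were higher, PPP2R3A among them (0.85 ± 0.11), and 13 lower, of which 1 to 3 were left without 1 or another replicate. Of 26 tyrosine phosphatases 4 were higher and 4 lower, PTPRU (-1.0 ± 0.08), PTPRH (-0.76 ± 0.12) and PTPN6 (-0.70 ± 0.09) among the last. Of 63 disulfide and prolyl isomerases and selenoproteins 12 were higher and 12 lower: SELENOP, the plasma carrier of selenium, was detected on 1 of 4 VEC arrays and rose by 1.84 ± 0.12, FKBP11 rose by 1.43 ± 0.09 and MSRB3 by 1.35 ± 0.09, while P3H2, a collagen prolyl hydroxylase, read 10.82, 10.64, 10.61 and 10.64 in CYT2 and 12.20, 11.95, 12.27 and 12.14 in VEC (-1.46 ± 0.10). When 1 replicate at a time was dropped there were 0 higher and 0 or 1 lower among tetraspanins, 0 to 3 higher and 1 or 2 lower among protocadherins, 1 to 4 higher and 2 or 3 lower among ciliary genes, 1 or 2 higher and 3 or 4 lower among tyrosine phosphatases and 6 or 7 higher and 4 to 7 lower in the isomerase list.

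Of 38 transcription factors of epithelium 5 were higher and 9 lower, 13.2% and 23.7%, near the 16.1% and 17.6% of all genes. FOXM1, which drives mitotic genes, read 7.73, 7.71, 7.74 and 7.45 in CYT2 and 5.56, 5.29, 5.53 and 5.68 in VEC (2.14 ± 0.12), and FOXN3, a repressor of the same class, rose by 0.94 ± 0.12. FOXQ1 read 8.35, 8.18, 7.95 and 7.97 in CYT2 and 9.80, 9.65, 9.71 and 9.76 in VEC (-1.62 ± 0.14), and BCL11B was undetected in CYT2 and at least 1.33-fold lower. Of 16 KLF and SP factors 1 was higher and 2 lower, KLF4 (-0.83 ± 0.09) and KLF5 (-0.99 ± 0.18), both factors of epithelial differentiation, though the call of KLF5 ended without VEC replicate 1 (adjusted p = 0.0543 by limma). Of 23 HOX and TALE genes 2 were higher, HOXC6 (0.57 ± 0.09) and IRX2 (0.49 ± 0.08), and 4 lower, IRX3 (-0.51 ± 0.08) and IRX5 (-0.49 ± 0.08) among them. Of 18 nuclear receptors and coregulators 3 were higher, with the oxysterol receptor NR1H3 (0.94 ± 0.11) and NR2F1 (0.74 ± 0.11), and 3 lower, with the vitamin D receptor VDR (-0.61 ± 0.08). Of 12 clock genes 2 were higher and 2 lower. Chromatin lists had smaller called shares than all genes: of 55 Polycomb and methylation enzymes 8 were higher, EZH2 (0.68 ± 0.10) and CBX6 (0.73 ± 0.12) among them, and 6 lower, led by JARID2 (-0.88 ± 0.08), and of 39 remodellers, deacetylases and sirtuins 2 were higher, SMARCA1 (0.75 ± 0.08) among them, and 5 lower, led by INO80 (-0.72 ± 0.09). Of 21 imprinted genes and long noncoding RNAs 7 were higher and 4 lower, with HOTAIR, undetected in VEC, at least 1.27-fold up and CDKN1C down by 0.84 ± 0.10. With any 1 replicate left out there were 2 to 4 higher and 5 or 6 lower among the epithelial factors, 2 or 3 higher and 2 lower in the HOX list, 0 or 1 higher and 0 or 1 lower among clock genes, 2 higher and 1 or 2 lower among nuclear receptors, 3 to 5 higher and 1 or 2 lower in the Polycomb list, 1 to 3 higher and 1 to 3 lower among remodellers and 2 or 3 higher and 2 lower in the imprinted list.

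Ubiquitin genes were likewise mixed apart from FBXO32, beside 16.1% of all genes higher and 17.6% lower. Of 54 F-box proteins, cullins and adaptors 8 were higher and 7 lower, with FBXO5, an inhibitor of the anaphase-promoting complex (1.28 ± 0.10), and CUL4B (0.88 ± 0.11) upward. Of 30 ubiquitin-conjugating enzymes 4 were higher and 4 lower: UBE2C, of the anaphase-promoting complex, read 11.96, 11.97, 11.81 and 11.83 in CYT2 and 9.10, 9.20, 9.14 and 9.30 in VEC (2.71 ± 0.10), and UBE2D4 fell by 0.73 ± 0.08. Of 32 USP deubiquitinases 2 were higher, USP49 among them (1.04 ± 0.10), and 8 lower, and of 35 TRIM genes 3 were higher, with the interferon-induced TRIM22 (0.97 ± 0.09), and 5 lower, with TRIM7 (-1.05 ± 0.16). Leaving out each replicate in turn left 5 to 7 higher and 1 or 2 lower in the F-box list, 3 or 4 higher and 1 or 2 lower among conjugating enzymes, 1 or 2 higher and 1 to 4 lower among deubiquitinases and 1 or 2 higher and 1 to 4 lower among TRIM genes.

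Of 32 Toll-like and interleukin receptors and adaptors 5 were higher and 11 lower, 15.6% and 34.4%, against 16.1% and 17.6% of all genes. IL1RN, the interleukin-1 receptor antagonist, read 7.09, 7.10, 7.18 and 6.75 in CYT2 and 8.65, 8.68, 8.75 and 9.09 in VEC (-1.76 ± 0.11), and IL1RAP fell by 1.10 ± 0.17. IL7R, which was undetected in VEC, was at least 2.91-fold higher, and IL17RD, an inhibitor of FGF signalling, rose by 1.32 ± 0.13. Of 23 caspase and inflammasome genes 6 were higher, NLRP3 (1.43 ± 0.15) and GSDMD (0.83 ± 0.10) among them, and 2 lower, CASP1 (-0.65 ± 0.08) one of them. The counts moved with the scaling, as did those of all genes. With the deposited log2 values 4 were higher and 6 lower, 17.4% and 26.1%, against 13.1% and 30.5% of all genes. With medians over all probes set equal 4 were higher and 5 lower, 17.4% and 21.7%, against 13.7% and 24.8% of all genes. Fewer members were called higher without 1 or another replicate. Of 21 genes of coagulation and fibrinolysis 4 were higher, with TFPI (0.86 ± 0.09) beside PROS1, and 6 lower, with F12 (-1.09 ± 0.12) beside THBD. Only 3 cancer-testis antigens were tested, of which 1 was lower and 0 higher. When 1 replicate at a time was dropped there were 3 or 4 higher and 7 to 9 lower among the Toll-like and interleukin receptors and 4 higher and 4 or 5 lower in the coagulation list.

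Of the called genes with the strongest signals, TGFBI, a matrix protein, read 14.82, 14.66, 14.68 and 14.68 in CYT2 and 13.73, 13.87, 13.94 and 13.80 in VEC (0.88 ± 0.08). The metallothionein MT2A rose by 0.66 ± 0.10, the mismatch repair gene MSH3 by 0.66 ± 0.08, the hyaluronan-binding ITIH5 by 0.61 ± 0.10, FAM177A1 by 0.60 ± 0.09 and the pseudogene TUBA3FP by 0.55 ± 0.09. Downward, the actin bundler FSCN1 read 13.76, 13.80, 13.91 and 13.88 in CYT2 and 14.43, 14.38, 14.51 and 14.52 in VEC (-0.62 ± 0.09), and the chaperone HSPA8 fell by 0.48 ± 0.08. The other members of this set moved by less than 0.47 either way, and their calls ended without at least 1 replicate: LGALS1, RRP7BP, ANXA2P2 and CST3 upward and NME1, EIF3B, RAC1, YWHAZ, TSPO, COXFA4, CHCHD2 and RPL36 downward, with adjusted p-values up to 0.185.

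A gene name did not always stand for a single change. Of 2528 genes with several probes tested, 542 had several probes called, and in 19 of these the called probes moved in opposite directions. PNPT1, a mitochondrial RNA-degrading enzyme, had a probe at 0.92 ± 0.16 and another at -0.83 ± 0.15, and INIP, of a single-stranded DNA-binding complex, had 1.07 ± 0.12 and -0.54 ± 0.09. The helicase DDX51 had 1.17 ± 0.09 and -0.57 ± 0.09, PRXL2A 0.39 ± 0.12 and -1.22 ± 0.15, N4BP2L2 1.12 ± 0.08 and -0.48 ± 0.13, and ZNF69 0.89 ± 0.12 and -0.58 ± 0.15. Where on the transcripts these probes lie was not examined here, and the changes of these genes are therefore uncertain. The call of PRXL2A ended without any 1 of the 4 replicates and that of PNPT1 without CYT2 replicate 2 (adjusted p up to 0.199 and 0.0501 by limma).

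**Figure D5:**
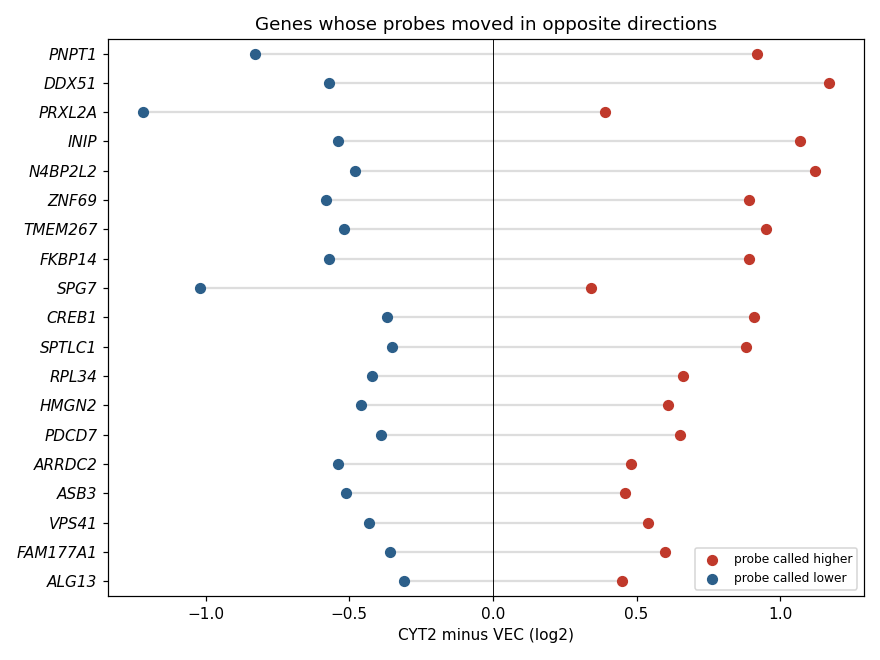
CYT2 minus VEC differences (log2, x axis) of the highest and the lowest called probe of each of the 19 genes whose called probes moved in opposite directions. The widest gap is that of PNPT1, with probes at 0.92 and -0.83.

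Whether a change in CYT2 cells differed from that in CYT1 cells was asked by testing CYT2 directly against CYT1. Only 82 of 17356 probes (0.472%) and 57 of 10371 genes (0.55%) were called, 35 probes higher and 47 lower, while 3029 had an unadjusted p under 0.05 by limma. The count rested on every replicate: it was 0 without CYT2 replicate 1 and without CYT2 replicate 2, with 2270 and 2292 probes at an unadjusted p under 0.05, 3 without VEC replicate 1 or VEC replicate 2, 706 with the deposited log2 values and 995 when signals without background correction were scaled by quantiles. Of the 57 genes, 48 were also called against VEC. MAD1L1, of the spindle checkpoint, was 0.96 ± 0.08 higher in CYT2 than in CYT1 while lower than in VEC (-0.83 ± 0.08), and the protease ADAM8 was 0.84 ± 0.10 higher than in CYT1 and 0.80 ± 0.10 lower than in VEC on the log2 scale. AURKB was 0.93 ± 0.10 higher than in CYT1, E2F2 0.90 ± 0.11, FAM83D, which guides chromosomes to the spindle, 0.85 ± 0.10 and the prostaglandin carrier SLCO2A1 1.04 ± 0.09, and all 4 were also higher than in VEC. RARRES1, a retinoid-induced gene, stood at -2.18 ± 0.13 against CYT1, LCP1, the actin bundler of leukocytes, at -1.58 ± 0.17, IGFBP4 at -1.47 ± 0.14, SPRR3 at -1.42 ± 0.15, IGFBP7 at -1.18 ± 0.09 and RTN1 at -1.17 ± 0.08. RARRES1 was also lower than in VEC, with 6.51, 6.51, 6.92 and 6.65 in CYT2 and 7.17, 7.34, 7.49 and 7.48 in VEC. LCP1 was instead higher than in VEC, with means of 6.20 in CYT2 and 5.28 in VEC. It was detected on 4 CYT2 arrays and 1 VEC array. The calls of RARRES1 and LCP1 against VEC both ended without VEC replicate 2.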

How the data were processed

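Illumina bead arrays of MCF10A cells were grouped by their titles into CYT2, CYT1 and VEC, with 4 arrays each. The deposited tables hold the signal intensity per probe and a detection p-value, per the file headers, and the authors' deposited value table holds log2 of the same unscaled intensity. Steps before deposit are otherwise not given in the sources used here.

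From the intensities, background was corrected with neqc of limma 3.58.1 (R 4.3.3), which infers its negative controls through the detection p-values, adds an offset of 16 and normalises by quantiles. Of 47323 probes, 17356 were kept, those detected (p under 0.05) by both technical arrays in 2 or more of the 6 biological replicates. Columns with signals and detection p-values were tied to titles by name and because log2 of each signal column equals the value table column of that sample. Technical arrays were averaged. A model of the 3 groups was fitted with lmFit and eBayes (3 residual degrees of freedom, prior 3.07), and p-values were adjusted by Benjamini-Hochberg over all kept probes. The procedure was tested on simulated data. The number of arrays limits the precision.

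A gene is its kept probe with the highest mean over the 12 arrays, with symbols updated through Entrez identifiers to the RefSeq table. Of all probes 30113 had 1 symbol, 8 several and 17202 none, and 30074 symbols were matched. Named genes are the 15 largest rises and falls with arrays that do not overlap, up to 4 called members per list by size of change (lists with fewer filled to 2 by smallest p), 3 members of each of 16 symbol families with extreme medians, 10 genes per direction detected in a single group, the 10 strongest signals per direction, 6 genes with opposite probes, and 6 per direction that also differed from CYT1. Members and lists were chosen with earlier results of these data known. Same-numbered replicates did not deviate together (correlation 0.00037 for CYT2 and VEC), so no pairing was used. Alternatives changed the background correction, scaling, filter, arrays, replicates and samples in the fit. The result of 1 gene list is not reported here.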

Additional observations from a re-analysis of the deposited data

Results flagged for a closer look

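CYT2 and CYT1 were set against the same VEC arrays, so their difference was tested directly as CYT2 minus CYT1 (log2, limma), and 24 of the named genes passed at an adjusted p under 0.05. Higher in CYT2 than in CYT1 were SLCO2A1 by 1.04, MAD1L1 by 0.96, AURKB by 0.93, E2F2 by 0.90, FAM83D by 0.85, ADAM8 by 0.84, MXD3 by 0.83, STMN1 by 0.81, SPRR2A and UBE2C by 0.78 each, CDCA8 by 0.73, LMNB1 by 0.70, and ANLN and EXO1 by 0.68 each. Lower in CYT2 than in CYT1 were RARRES1 (-2.18), LCP1 (-1.58), IGFBP4 (-1.47), SPRR3 (-1.42), IGFBP7 (-1.18), RTN1 (-1.17), HSD17B2 (-1.14), DCN (-1.03), KLK5 (-0.95) and ACKR1 (-0.73). All 24 kept their direction under the 14 other settings tried, but 0 were called without CYT2 replicate 1 and 0 without CYT2 replicate 2, and 1 without VEC replicate 1 and 1 without VEC replicate 2.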

How the results depend on the processing

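With 2 biological replicates a group, the number of calls depended on every replicate. Without 1 of the 4 replicates of CYT2 and VEC in turn, 3020 to 3185 probes were called, 1703 to 1742 higher and 1291 to 1449 lower. Technical array 1 alone gave 2972 (1696 higher, 1276 lower) and technical array 2 alone 2937 (1606 higher, 1331 lower). The deposited log2 values gave 4560 lower. The cause was not tested, beyond the smaller number of arrays where arrays were left out. For CYT2 against CYT1, 82 probes became 23 with arrays averaged by technical number (an alternative chosen after seeing the data), 706 with the deposited log2 values, 52 with median scaling, 2 without the detection filter, 995 with quantile scaling of uncorrected signals, 234 with the stricter filter, 1 and 2 with technical array 1 or 2 alone and 0 to 3 without 1 replicate. Replicates share only a number: with it as a replicate block, 4732 probes were called in CYT2 against VEC (2364 higher, 2368 lower) and 2 in CYT2 against CYT1. Of 383 named genes called, 0 turned direction under any setting, 283 stayed called without each single replicate and 247 under all settings. Probes without signal above background have only bounds.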
